A study of Mus musculus with 44 samples.

Results

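Ucp2, Ucp3, Slc25a4, Slc25a5, Slc25a3 and Nnt encode proteins of the inner mitochondrial membrane through which protons, adenine nucleotides or phosphate pass, and their isoform use was compared between liver and skeletal muscle. The 6 genes were listed by symbol, and all 6 were found by Ensembl identifier among the 38202 genes of the deposited tables. The identifiers were ENSMUSG00000033685 for Ucp2, ENSMUSG00000032942 for Ucp3, ENSMUSG00000031633 for Slc25a4, ENSMUSG00000016319 for Slc25a5, ENSMUSG00000061904 for Slc25a3 and ENSMUSG00000025453 for Nnt. Poly(A) RNA was sequenced from liver and skeletal muscle of 22 male C57BL/6N mice, 11 wild-type (WT) and 11 homozygous Slc16a13 knockout (KO), so that each mouse gave 2 of the 44 libraries. The KO allele is a constitutive CRISPR/Cas9 deletion of the proximal promoter and leading exons of Slc16a13, which encodes a lactate transporter, and it is thus not restricted to 1 cell type. All mice of both genotypes received high-fat diet for 15 weeks and were killed at 20 weeks of age after an overnight fast, and no group on chow diet was sequenced here. The 4 groups of 11 libraries are WT liver, KO liver, WT muscle and KO muscle, and which muscle was taken is not given in the labels.

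Each library held between 20150712 and 35218243 counted reads. Slc16a13 had 99 to 302 reads in the WT livers and 0 to 8 in the KO livers. In muscle it had 4 to 22 reads in WT and 11 to 40 reads in the libraries labelled KO, so the counts do not show the deletion there. Slc16a13 was thus higher in the muscles labelled KO, against the label, by 0.64 ± 0.22 on the log2 scale (KO minus WT, ± SE). Only 0.874% of the 13266 genes tested in muscle had a larger absolute difference. In edgeR's quasi-likelihood test on the counts its unadjusted p was 0.00711, and it was not called after adjustment over all genes (adjusted p = 0.495). Counts per gene do not show whether reads came from the deleted exons or from those that remain. These libraries are called muscles labelled KO throughout. The 7 hepatocyte markers summed to between 87801 and 154869 CPM (counts scaled to library size) in liver and stayed at or below 57.3 CPM in muscle. The 7 skeletal muscle fibre markers summed to between 122765 and 199581 CPM in muscle and at most 58.8 CPM in liver. In 4 KO livers, those of mice 532, 583, 602 and 611, short genes were favoured over long ones relative to the mean of the 22 livers. The slope was taken over genes, of log2 CPM less the gene's mean over these livers, against log2 length. It was between -0.54 and -0.08 in the 4 and positive in the other 18 livers, and its sign is relative to that mean. Genotype values in liver are therefore given with and without these 4 mice. The sequencing pools held 11 libraries each, which of them shared a pool is not given, and a pool and a group of 11 cannot be told apart if they coincide.

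Respiration pumps protons out of the mitochondrial matrix, and ATP synthase lets them return while it makes ATP. The adenine nucleotide translocases (Slc25a4 or ANT1, the heart and muscle form, and Slc25a5 or ANT2, the form of most other tissues) exchange the ATP made for cytosolic ADP, and the phosphate carrier Slc25a3 brings in the phosphate. Ucp2 and Ucp3 are relatives of the brown fat uncoupling protein Ucp1, and Ucp3 is known as a muscle gene that responds to fasting and fatty acids. Nicotinamide nucleotide transhydrogenase (Nnt) uses the proton gradient to make mitochondrial NADPH, which feeds the removal of peroxide. C57BL/6J mice carry a deletion within Nnt that C57BL/6N mice lack.

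The sequence before each gene's start is shown for the pair of uncoupling proteins and the pair of translocases, since the members of each pair were used in opposite tissues. RefSeq (mouse build GRCm38.p6) gave a start for 5 of the 6 genes, and Nnt had no entry. Each run holds the 250 bases before the annotated start, written 5′ to 3′ on the gene's strand. Capitals mark matches, on either strand, to the nuclear receptor half-site AGGTCA, the E-box CANNTG bound by factors such as the myogenic MyoD family, and the GC box GGGCGG. Ucp3 lies at chr7:100472741-100472990 (plus strand), Ucp2 at chr7:100493108-100493357 (plus strand), Slc25a4 at chr8:46211063-46211312 (minus strand) and Slc25a5 at chrX:36795347-36795596 (plus strand).
Ucp3: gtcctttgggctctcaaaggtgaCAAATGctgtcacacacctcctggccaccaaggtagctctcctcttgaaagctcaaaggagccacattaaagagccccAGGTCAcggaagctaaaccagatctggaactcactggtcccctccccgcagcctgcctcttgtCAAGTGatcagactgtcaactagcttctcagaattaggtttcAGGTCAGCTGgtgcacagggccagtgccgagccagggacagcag
Ucp2: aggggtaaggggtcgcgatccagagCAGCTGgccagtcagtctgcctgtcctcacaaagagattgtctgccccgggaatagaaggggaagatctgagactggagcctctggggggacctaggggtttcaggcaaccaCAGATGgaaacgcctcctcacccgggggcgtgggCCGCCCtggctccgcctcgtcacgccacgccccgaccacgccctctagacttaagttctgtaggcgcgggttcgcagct
Slc25a4: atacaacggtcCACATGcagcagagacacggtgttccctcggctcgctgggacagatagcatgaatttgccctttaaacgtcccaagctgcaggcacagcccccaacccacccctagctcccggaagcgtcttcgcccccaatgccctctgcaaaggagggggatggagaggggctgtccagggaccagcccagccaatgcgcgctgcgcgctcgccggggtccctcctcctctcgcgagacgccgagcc
Slc25a5: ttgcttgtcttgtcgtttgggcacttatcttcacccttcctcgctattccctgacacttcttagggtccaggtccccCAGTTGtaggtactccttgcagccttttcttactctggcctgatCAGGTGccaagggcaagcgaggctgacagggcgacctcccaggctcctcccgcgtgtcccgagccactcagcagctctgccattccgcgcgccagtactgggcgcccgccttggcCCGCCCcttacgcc

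The annotated starts of Ucp3 and Ucp2 are 20367 bases apart on the same strand, and the 2 windows differed in composition. Ucp3 had 54.8% G and C with 3 CG dinucleotides, and Ucp2 had 63.6% with 16. AGGTCA occurred 2 times before Ucp3, 149 and 44 bases before the start, and did not occur in the windows of the other 4 genes, and 14% of all 32851 RefSeq promoter windows of this length held it. The nearer copy overlaps the E-box CAGCTG that begins 40 bases before the start. Each of the 5 windows held at least 1 match to CANNTG (3 in Ucp3, 2 in Ucp2 and Slc25a5, 1 in Slc25a4 and Slc25a3), as did 66.2% of all windows. GGGCGG matched 1 time each in Ucp2, Slc25a5 and Slc25a3 and in 32.7% of all windows. TATAA was found in none of the 5 and in 22.8% of all windows. These matches describe the letters only, and no binding was measured.

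In WT mice the adenine nucleotide translocases changed places between the tissues. Levels that are compared between genes are given as the deposited RPKM (reads scaled to gene length and library size). Slc25a5 had 283 ± 31.7 RPKM in WT liver and 18.8 ± 2.96 in WT muscle (mean ± SD, n = 11 mice each). Slc25a4 had 2.58 ± 0.693 RPKM in WT liver and 1606 ± 140 RPKM in WT muscle, where it ranked 33 among all genes by mean RPKM. Its lowest, median and highest values were 1.33, 2.55 and 3.80 RPKM in WT liver and 1360, 1615 and 1814 RPKM in WT muscle. For Slc25a5 the same 3 values were 240, 291 and 327 RPKM in liver and 14.7, 18.2 and 23.4 RPKM in muscle. The liver and muscle ranges did not overlap for either gene, in WT mice or in mice labelled KO. In edgeR's quasi-likelihood test on the counts, Slc25a4 was higher in WT muscle by 9.21 ± 0.14 on the log2 scale (± SE, adjusted p = 3.92e-27) and Slc25a5 was lower by a log2 difference of -3.96 ± 0.08 (adjusted p = 8.25e-25).

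Within a library, Slc25a4 made up 98.8% ± 0.176 (SD, n = 11) of the summed RPKM of both translocases in WT muscle, with all 11 mice between 98.5% and 99.04%. In WT liver its share was 0.890% ± 0.161 (SD, n = 11), between 0.550% and 1.16%. The summed level of both translocases was 286 ± 32.3 RPKM in WT liver and 1625 ± 141 RPKM in WT muscle. The phosphate carrier rose less: Slc25a3 had 211 ± 9.12 RPKM in WT liver and 414 ± 38.7 RPKM in WT muscle, a log2 difference of 1.02 ± 0.04 (adjusted p = 5.93e-18). Per translocase, Slc25a3 was therefore at a ratio of 0.743 ± 0.0598 in WT liver and 0.255 ± 0.0202 in WT muscle (SD, n = 11 each), and neither its range in liver (0.658 to 0.833) nor that in muscle (0.224 to 0.288) reached the other. Slc25a3 is spliced into a heart and muscle form and a ubiquitous form, and counts per gene cannot show which was made. The testis form of the translocase, Slc25a31 (ANT4), had at most 4 reads in any library.

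**Figure D1:**
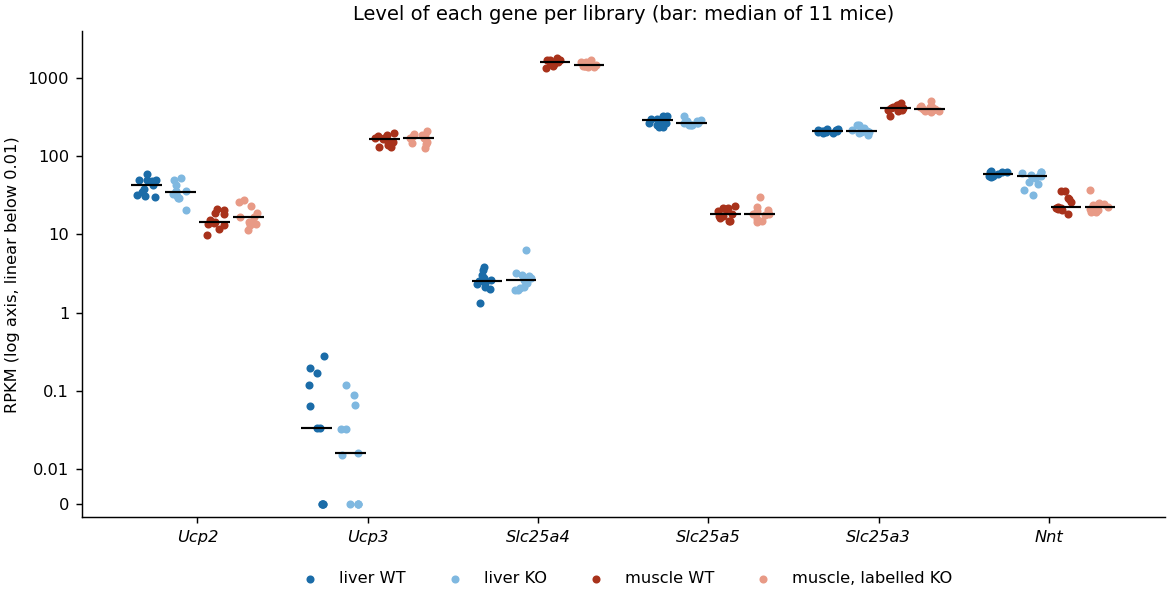
RPKM of each of the 6 genes in every library, on a log axis that is linear below 0.01, with 11 mice per group and a bar at the group median. Slc25a4 and Ucp3 lie low in liver and high in muscle, Slc25a5 lies the other way round, and WT and KO points of the same tissue overlap for every gene.

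The uncoupling proteins were divided in the same way. Ucp3 had 163 ± 22.7 RPKM in WT muscle (lowest 132, median 168.5, highest 198), where it ranked 306 among all genes. In WT liver it had 0 to 13 reads per library, with 4 of 11 libraries at 0 and a summed 46 reads, or 0.166 CPM with an exact 95% Poisson interval of 0.121 to 0.221 that covers counting error only. The difference between the tissues was 11.15 ± 0.25 on the log2 scale (adjusted p = 1.52e-23) in WT mice, and since it rests on these few liver reads it ranged between 7.24 and 12.01 over the alternative analyses. Ucp3 passed the filter on low counts in this comparison through its reads in muscle. Ucp2 went the other way, at 42.5 ± 9.79 RPKM in WT liver (30.4, 42.5 and 60.1 as lowest, median and highest) and 15.7 ± 3.73 RPKM in WT muscle (9.87, 14.5 and 21.5), a log2 difference of -1.41 ± 0.11 (adjusted p = 6.57e-12). Ucp2 was the lower in muscle in all 11 WT mice and in all 11 mice labelled KO. Ucp3 made up 91.1% ± 2.31 (SD, n = 11) of the summed RPKM of both in WT muscle and 0.171% ± 0.199 in WT liver. The sum was 42.6 ± 9.84 RPKM in WT liver and 179 ± 22.5 RPKM in WT muscle, and the translocases exceeded it by a ratio of 6.93 ± 1.13 in liver and 9.20 ± 1.24 in muscle.

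**Figure D2:**
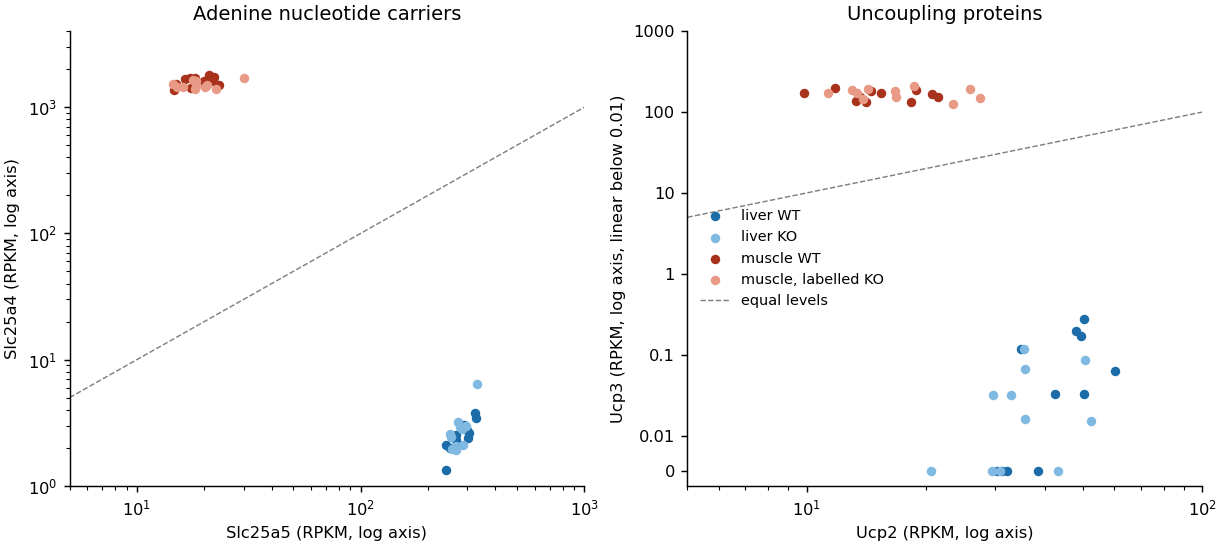
Each point is 1 library, with Slc25a4 against Slc25a5 at left and Ucp3 against Ucp2 at right, in RPKM on log axes (the Ucp3 axis is linear below 0.01). All 22 muscles lie above the dashed line of equal levels and all 22 livers below it in both plots.

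The few Ucp3 reads of liver were set beside the skeletal muscle fibre markers, because muscle tissue in a liver sample would bring both. At the ratio of Ucp3 to these markers in the muscle libraries, the fibre marker reads would bring 6.66 of the 46 Ucp3 reads of the WT livers and 3.62 of the 23 of the KO livers. For Slc25a4 the same ratio gives 48.2 of 1363 reads in WT livers and 26.2 of 1567 in KO livers. The WT liver of mouse 516 had the highest fibre markers, 58.8 CPM, with 10 Ucp3 reads, against 3.39 at the muscle ratio. The WT livers of mice 528 and 624 had 10 and 13 Ucp3 reads at fibre markers of only 5.82 and 3.34 CPM. Adipocyte markers also differed between these livers. Only 2 of the 6 on the list reached a mean of 1 CPM in WT liver, and Lep had 0 reads in every WT liver. The 6 adipocyte markers summed to 111.8, 62.9 and 61.5 CPM in the WT livers of mice 624, 528 and 516, which had the most Ucp3 reads, and to 10.9 to 41.5 CPM in the 4 WT livers with 0 Ucp3 reads. WT mouse 616 had 63.5 CPM with 3 Ucp3 reads, and WT mouse 537 had 11.8 CPM with 7. Whether the adipocyte marker reads of these livers came from fat tissue was not tested. The part of muscle or fat tissue in the Ucp3 and Slc25a4 reads of liver was not tested either. Ucp1 had 0 reads in all 22 livers, which allows up to 0.0133 CPM in WT and 0.0131 in KO livers (exact Poisson upper bound over the group), and 5 reads in all WT muscles and 37 in all muscles labelled KO, of which 19 were in 1 library.

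Nnt was expressed in all 44 libraries and was the lower in muscle. It had 59.8 ± 3.82 RPKM in WT liver (54.8, 58.9 and 64.9 as lowest, median and highest) and 25.7 ± 6.30 RPKM in WT muscle (18.2, 22.3 and 36.6), a log2 difference of -1.25 ± 0.09 (adjusted p = 9.75e-13). The ranges did not overlap in WT mice, whereas in the mice labelled KO the liver range of 32.4 to 63.9 RPKM reached into the muscle range of 19.4 to 37.4. Nnt was still lower in muscle within each of these 11 mice. The livers that reached the muscle range were those of mice 532 and 602, which favoured short genes. In the 7 KO livers with positive slopes Nnt had 52.8 to 63.9 RPKM, above that range. Counts per gene do not show whether any exon was absent.

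All 6 genes thus passed the test between the tissues in WT mice, 3 in each direction, where 91.0% of all 13907 genes tested did so, 45.5% as higher and 45.5% as lower in muscle. A count of 6 of 6 is therefore close to that background, and Ucp3 among them passed the filter through its reads in muscle. The absolute differences of Slc25a4 and Slc25a5 were exceeded by 5.18% and 16.98% of the genes tested, and those of Ucp2, Nnt and Slc25a3 by 43.8%, 47.8% and 54.7%. The mice labelled KO gave the same directions for all 6 genes, among 86.7% of 13981 genes called, with Ucp3 at 12.11 ± 0.30, Slc25a4 at 8.89 ± 0.22, Slc25a3 at 0.82 ± 0.09, Nnt at -1.25 ± 0.11, Ucp2 at -1.24 ± 0.18 and Slc25a5 at -3.99 ± 0.11 (log2 difference, muscle minus liver, ± SE). With the mouse as a replicate block, none of these calls changed.

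By RPKM, the order of levels in WT liver was Slc25a5, Slc25a3, Nnt, Ucp2, Slc25a4 and Ucp3. Nnt and Ucp2 were the neighbours whose ranges overlapped there, and Nnt was the higher in 10 of 11 mice. In KO liver the ranges of Slc25a5 and Slc25a3 also overlapped, although Slc25a5 was the higher in all 11 mice. The Slc25a3 levels above the lowest Slc25a5 level (252.0 RPKM) were those of mice 532 and 602 (255.5 and 254.4 RPKM), whose livers favoured short genes. In WT muscle the order was Slc25a4, Slc25a3, Ucp3, Nnt, Slc25a5 and Ucp2, and the ranges of the last 3 overlapped, with Nnt above Slc25a5 in 10 and Slc25a5 above Ucp2 in 9 of 11 mice. The remaining neighbours were separated in each of the 4 groups.

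The KO and WT livers were compared to ask whether the loss of Slc16a13 altered the coupling genes. None of the 5 genes that passed the filter on low counts was called in liver, where 3 of 13005 genes, 0.0231%, were called at an adjusted p under 0.05 and 12.9% had an unadjusted p under 0.05. No member had an unadjusted p under 0.05 in liver in the edgeR test, and DESeq2 and limma-voom called none. Slc25a3, the phosphate carrier, had 230, 238 and 244 CPM in WT liver and 218, 246 and 352 CPM in KO liver (lowest, median and highest). Its difference was 0.14 ± 0.07 on the log2 scale (KO minus WT, ± SE, 95% interval -0.01 to 0.30, adjusted p = 0.384). Nnt had 184, 194 and 219 CPM in WT liver and 108, 190 and 206 CPM in KO liver, a difference of -0.16 ± 0.09 (95% interval -0.35 to 0.02, adjusted p = 0.385). On log2(RPKM + 1) Nnt differed by more, -0.23 ± 0.10 (limma, adjusted p = 0.321). Slc25a4 differed by 0.24 ± 0.19 (95% interval -0.15 to 0.63, adjusted p = 0.470), Slc25a5 by 0.03 ± 0.06 (-0.10 to 0.16, adjusted p = 0.769) and Ucp2 by 0.05 ± 0.16 (-0.28 to 0.37, adjusted p = 0.876). Ucp3 was below the filter, and without it differed by -0.90 ± 0.70 (adjusted p = 0.521) on 46 against 23 reads.

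For Slc25a3 and Nnt, the spread among KO livers lay mostly in the 4 libraries that favoured short genes. Slc25a3 had 252 to 352 CPM in these 4, above all 11 WT livers, and 218 to 247 CPM in the other 7 KO livers. Nnt had 108 to 157 CPM in the 4, below all 11 WT livers, and 179 to 206 CPM in the other 7. The RPKM tables imply a length of 1189 bases for Slc25a3 and 3347 bases for Nnt, against a median of 2414 bases over the genes tested. Without these 4 mice the differences of Slc25a3 and Nnt were -0.01 ± 0.03 and -0.00 ± 0.04, and those of Slc25a4, Slc25a5 and Ucp2 were -0.05 ± 0.15, -0.06 ± 0.05 and -0.12 ± 0.13 (log2, KO minus WT, ± SE, each with adjusted p = 0.999). With the trend on gene length removed from each library and all mice kept, Slc25a3 differed by 0.02 ± 0.04 and Nnt by -0.08 ± 0.06. Some marker sums also differed in these livers. The 7 hepatocyte markers summed to 135144, 135805 and 154869 CPM in mice 532, 583 and 602 and to at most 121308 CPM in the other 19. The 5 erythroid markers summed to 390 to 574 CPM in the 4 livers and to at most 332 CPM in the other 18. The 4 endothelial markers summed to 75.1, 94.9 and 83.5 CPM in mice 532, 583 and 602 and to at least 108 CPM in the other 19. Neither the part of gene length in these sums nor the part of such cells in the Slc25a3 and Nnt values was tested. The short-gene slope was found in KO livers only, so its part in a genotype difference and that of the genotype cannot be told apart within these 4 mice.

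**Figure D3:**
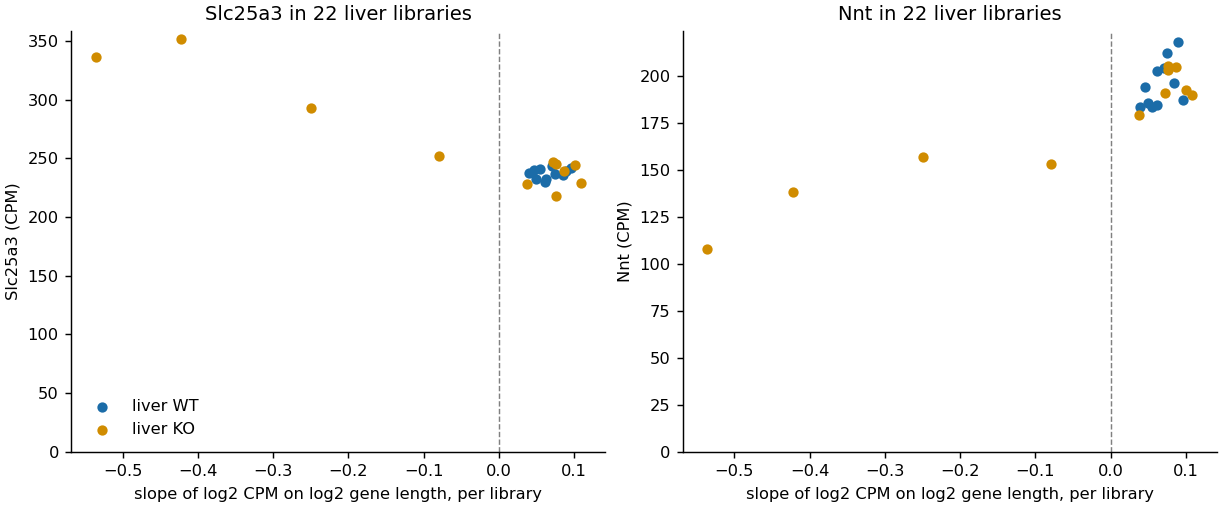
CPM of Slc25a3 and Nnt in the 22 liver libraries against the length slope of that library, with a dashed line at a slope of 0. The slope is over genes, of log2 CPM less the gene's mean over the 22 livers, against log2 length. The 4 KO livers left of the line had the 4 highest Slc25a3 values and the 4 lowest Nnt values of all livers.

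Mouse 532, which had the steepest slope (-0.54), was the KO liver farthest from the rest for 4 of these genes. It had the highest Ucp2 (105 CPM, against 34.3 to 67.0 in the other 21 livers), the highest Slc25a4 (12.8 CPM, against at most 6.86), the highest Slc25a5 (427 CPM) and the lowest Nnt (108 CPM). The 10 macrophage and Kupffer cell markers summed to 1453 CPM in this liver and to between 404 and 762 CPM in the others, and their part in these values was not tested. Fewer or more cells of a type and less or more RNA per cell cannot be told apart in bulk tissue. For Ucp2 the choice of scale also mattered. The deposited RPKM gave 42.5 ± 9.79 in WT and 36.04 ± 9.44 in KO liver, a log2(RPKM + 1) difference of -0.24 ± 0.14 (limma, adjusted p = 0.350), whereas the counts gave 48.4 ± 9.41 and 50.0 ± 19.5 CPM. The gene length implied by both tables ran from 1073 to 1911 bases for Ucp2 between libraries, and how it was set is not given in the sources used here.

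In WT liver Slc25a3 was the most even of all genes tested. Its 11 values had a coefficient of variation of 1.84%, the lowest among 13005 genes and near the 1.29% that counting its reads alone would give, against a median of 12.1% over all genes. Scaled by library size alone it was 3.75% (rank 138 from the lowest), and in RPKM 4.33% (rank 201). In the KO livers it was 17.1%, and 4.63% in the 7 without the short-gene slope. Nnt, Slc25a5, Ucp2 and Slc25a4 varied more among WT livers, with a log2 SD of 0.09, 0.12, 0.27 and 0.37, and the last 2 were above 72.0% and 82.7% of the genes tested.

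In muscle none of the 6 genes was called between the labelled genotypes, where 1 of 13266 genes, 0.00754%, was called and 8.64% had an unadjusted p under 0.05. No member was below that unadjusted level in muscle in the edgeR test or was called by DESeq2 or limma-voom. Ucp2 had 14.2, 18.3 and 24.3 CPM in WT and 14.7, 20.6 and 34.2 CPM in muscles labelled KO (lowest, median and highest), a log2 difference of 0.23 ± 0.14 (95% interval -0.06 to 0.51, adjusted p = 0.654). The 4 highest values were all from muscles labelled KO, and the other 7 lay within the WT range. Nnt differed by -0.15 ± 0.11 (-0.38 to 0.07, adjusted p = 0.709), and all 11 muscles labelled KO were within the WT range. Slc25a4 differed by -0.07 ± 0.05 (-0.17 to 0.02), Slc25a3 by -0.04 ± 0.05 (-0.13 to 0.06), Ucp3 by 0.05 ± 0.09 (-0.14 to 0.25) and Slc25a5 by 0.01 ± 0.10 (-0.19 to 0.22), with adjusted p between 0.670 and 0.977. A p above the threshold does not show that the groups were equal.

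**Figure D4:**
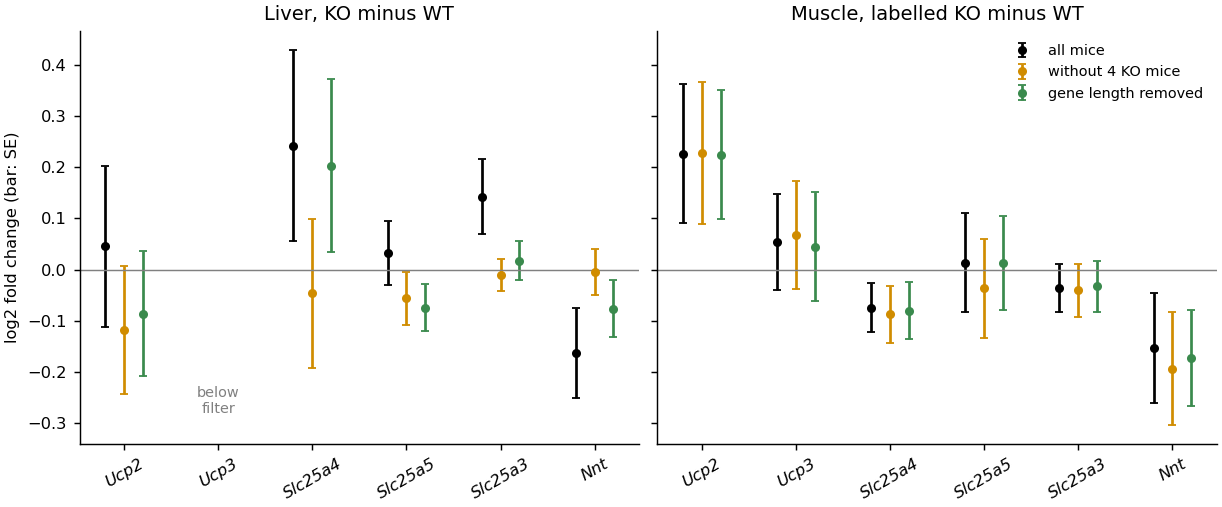
Log2 fold change of each gene between genotypes in liver and in muscle, with bars of 1 SE, for all mice, without the 4 KO mice whose livers favoured short genes, and with the gene length trend removed. In liver the points of Slc25a3 and Nnt move towards 0 in both alternatives, and in muscle the points of each gene stay within 1 SE of each other.

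The genotype difference was also compared between the tissues. No member was called, among 0.00678% of 14739 genes called and 16.2% with an unadjusted p under 0.05. Slc25a3 came nearest, with a difference between muscle and liver of -0.19 ± 0.09 (log2, unadjusted p = 0.0459, adjusted p = 0.303), which was -0.03 ± 0.06 without the 4 mice. Ucp3 had the largest estimate, 0.96 ± 0.56 (adjusted p = 0.368), and it rests on the few reads of liver.

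Isoform use per mouse did not differ detectably between genotypes. The share of Slc25a4 was 0.890% ± 0.161 in WT and 1.003% ± 0.330 in KO liver (difference 0.113 percentage points, p = 0.366) and 98.8% ± 0.176 and 98.7% ± 0.243 in muscle (difference -0.100, p = 0.284). The KO liver of mouse 532 had the highest share in liver, 1.89%, and without the 4 short-gene mice the liver difference was 0.00487 percentage points (p = 0.9565 in the same permutation test). The share of Ucp3 was 0.171% ± 0.199 and 0.0879% ± 0.106 in liver (difference -0.0830, p = 0.241, and -0.0842 without the 4 mice) and 91.1% ± 2.31 and 90.4% ± 3.40 in muscle (difference -0.686, p = 0.593). Each p is from a two-sided permutation test of the difference of means with 100000 resamples (SD, n = 11 per group), and adjusted over these 4 comparisons they were between 0.488 and 0.593.

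Among WT muscles the 6 genes varied most in Nnt, Ucp2 and Ucp3 (log2 SD 0.29, 0.27 and 0.22), and among muscles labelled KO in Ucp2, Slc25a5 and Ucp3 (0.40, 0.27 and 0.25). The highest Nnt levels were in the muscles with the most fast oxidative fibre myosin. Nnt had 121, 120 and 115 CPM in WT mouse 531, WT mouse 624 and mouse 611 labelled KO, and 64.4 to 96.2 CPM in the other 19 muscles. Myh2, the myosin heavy chain of type IIA fibres, had 1458, 1115 and 1241 CPM in the same 3 muscles and 31.6 to 503 CPM in the others. The lowest Nnt value and the lowest Myh2 value were both in WT mouse 528. The muscle pieces were thus not alike in fibre type, and the part of this in the Nnt levels was not tested. Myh7, the slow fibre myosin, was above 3 CPM in mouse 531 only (76.2 CPM). Over the 11 WT muscles, the 3 genes whose log2 CPM followed Nnt most closely were Ech1 (Pearson r = 0.98), Hadhb (0.98) and Casq2 (0.97). Ech1 and Hadhb encode enzymes of mitochondrial fatty acid oxidation, and Casq2 encodes the calsequestrin of slow fibres and heart. In the 11 muscles labelled KO, which had no part in that choice, r was 0.95, 0.97 and 0.90. Without the KO mice whose livers favoured short genes, mouse 611 among them, r over the remaining 7 was lower, at 0.66, 0.89 and 0.68. The 11 points of a group share the fibre makeup of their samples, and these r are descriptions.

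**Figure D5:**
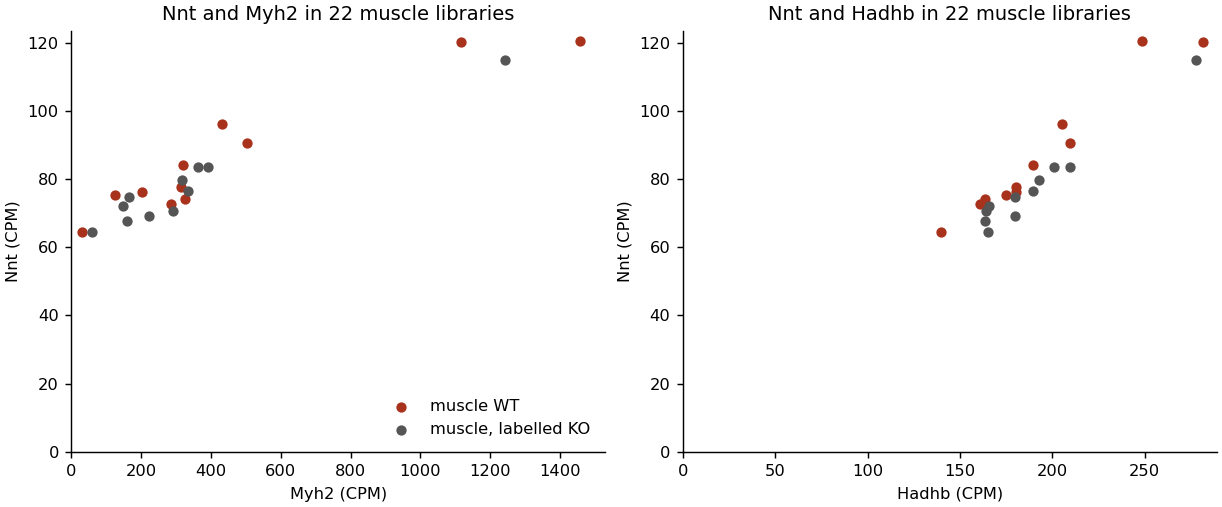
CPM of Nnt in the 22 muscle libraries against Myh2, the myosin of type IIA fibres, at left and against Hadhb, a subunit of the trifunctional protein of fatty acid oxidation, at right. Both axes start at 0, and mice 531, 624 and 611 are the 3 points above 115 CPM of Nnt.

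The carriers of ATP synthesis followed other mitochondrial genes in muscle. For Slc25a4 the 3 closest genes over WT muscles were Ndufs3 (r = 0.98), Isca1 (0.96) and Ndufa13 (0.94), of which Ndufs3 and Ndufa13 are complex I subunits, with r of 0.82, 0.71 and 0.83 in the muscles labelled KO. For Slc25a3 they were the Krebs cycle enzymes Fh1 (0.98) and Idh3g (0.97) and the ATP synthase subunit Atp5g1 (0.97), with 0.82, 0.90 and 0.93. For Ucp3 they were Hr (0.95), Trappc10 (0.92) and Tsc2 (0.91), with 0.85, 0.57 and 0.69. For Ucp2 they included Adam17 (0.95) and Tm6sf1 (0.91), with 0.56 and 0.59. For Slc25a5 they included Mt2 (0.93) and Rdh13 (0.93), with 0.47 and 0.15. Without mice 532, 583, 602 and 611, r over the remaining 7 muscles labelled KO was 0.87, 0.74 and 0.82 for Slc25a4. It was 0.90, 0.87 and 0.89 for Slc25a3 and 0.91, 0.30 and 0.67 for Ucp3. For Ucp2 it was 0.28 and 0.22, and for Slc25a5 0.56 and 0.13. The muscle of mouse 611 had the highest Ucp2 (34.2 CPM), Slc25a5 (33.8 CPM), macrophage markers (112 CPM summed) and endothelial markers (281 CPM summed). The muscle of mouse 561 had a Ucp2 level of 28.6 CPM, above all WT muscles, with the highest adipocyte markers (916 CPM summed, against 97.2 to 716 in the others) and the lowest Ucp3 (291 CPM) and Slc25a4 (2536 CPM). The part of these other cells in the values was not tested.

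In liver the closest genes were less alike between the genotypes. Slc25a5 was followed by Trap1, the mitochondrial HSP90 chaperone (r = 0.97 over WT livers, 0.95 over KO livers), Akap7 (0.95 and -0.79) and Idh2, a mitochondrial source of NADPH (0.95 and 0.70). In the 7 KO livers without the short-gene slope these were 0.89, -0.56 and 0.54. Ucp2 was followed by Tmem98 (0.94 and 0.76), Nagk (0.93 and 0.77) and Tmem184a (0.93 and -0.05), and in the 7 livers 0.80, 0.77 and 0.53. Slc25a4 was followed by Ces2g (0.97 and -0.21), Prmt7 (0.95 and 0.53) and Tubb6 (0.94 and 0.79), and in the 7 livers r was 0.42, -0.53 and 0.56, so that the sign turned for Ces2g and Prmt7. For Slc25a3 they were Actr3 (0.90 and -0.85), Cfl2 (0.86 and -0.75) and Prkaa2 (0.85 and -0.88), and without the 4 short-gene livers r in the remaining 7 KO livers was 0.29, 0.49 and 0.50. For Nnt they were Jpt2 (0.89 and 0.74), Xpo7 (0.88 and 0.95) and Usf2 (0.88 and -0.75), and in the 7 livers 0.45, 0.03 and -0.17. The 2 translocases had r = 0.83 with each other over WT livers and 0.69 over KO livers (0.14 in the 7), and r = 0.33 and 0.10 in muscle.

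Other members of the mitochondrial carrier family were read from a list of 47 genes. Of these, 40 passed the filter in the tissue comparison of WT mice, and 14 were higher and 24 lower in muscle, with a median log2 difference of -0.73 against -0.00 over all genes tested. The aspartate-glutamate carriers changed places as the translocases did. Slc25a12 (aralar) had 9.90 ± 1.75 RPKM in WT liver and 225 ± 12.1 RPKM in WT muscle, and Slc25a13 (citrin) had 98.9 ± 7.14 and 0.126 ± 0.0689 RPKM. Leaving aside the relatives of the uncoupling proteins and the ATP-Mg carriers, the 3 largest differences each way also included Slc25a36 (log2 difference 4.04 ± 0.08) and Slc25a26 (1.48 ± 0.05), the carriers of pyrimidine nucleotides and of S-adenosylmethionine, both higher in muscle, and Slc25a48 (-10.65 ± 0.16) and Slc25a21 (-8.03 ± 0.16), both lower. The last 2 were near 0 in WT muscle (0.002 and 0.034 RPKM), and with an RPKM pseudocount of 1 they differed by -2.68 and -3.29. Among relatives of the uncoupling proteins, Slc25a27 (UCP4) was higher in muscle, at 0.373 ± 0.0805 and 5.40 ± 0.465 RPKM, and Slc25a30 was lower, at 20.1 ± 10.6 and 2.10 ± 0.336 RPKM, while Slc25a14 (UCP5) did not pass the test at 1.42 ± 0.271 and 1.33 ± 0.204 RPKM. Among the carriers that exchange ATP-Mg for phosphate, Slc25a24 was higher in muscle (0.99 ± 0.14), and Slc25a23 (-3.89 ± 0.07) and Slc25a25 (-0.93 ± 0.40, adjusted p = 0.0304) were lower. The call of Slc25a25 was lost with the gene length trend removed (adjusted p = 0.120) and without any 1 of mice 528, 531, 586, 623 or 624 (log2 difference -0.90 to -0.74, adjusted p 0.0531 to 0.0892). None of the carriers was called between genotypes, among 40 tested in liver (median log2 difference 0.01) and 37 in muscle (-0.02).

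Genes that work beside the members were read from 3 further lists. Of 17 genes of ATP synthase and its inhibitor, 16 passed the filter and 14 were higher in muscle in WT mice, with none lower and a median of 0.68, led by Atp5g1 (1.43 ± 0.05), Atp5o (1.28 ± 0.04) and Atp5c1 (1.001 ± 0.04). The log2 difference of Slc25a3, 1.02, was above this median and below those of Atp5g1 and Atp5o. In KO liver 8 of the 16 had an unadjusted p under 0.05, all higher, with a median of 0.29 and none called. Without the 4 short-gene mice the median was -0.03, with none of them higher and 1 lower at that level. With the gene length trend removed and all mice kept, the median was 0.04, with 3 higher and none lower at that level. Of 16 mitochondrial NADPH and peroxide genes, 7 were higher and 8 lower in muscle. The malic enzyme Me3 had 0.110 ± 0.0708 RPKM in WT liver and 37.8 ± 3.16 in WT muscle, Aldh1l2 (log2 difference 4.87 ± 0.14) and Mthfd2l (2.55 ± 0.19) were also higher in muscle, and Gpx1 (-5.40 ± 0.08), Glud1 (-3.26 ± 0.06) and Nadk2 (-2.13 ± 0.05) were lower. Idh2, which like Nnt makes mitochondrial NADPH, was the 1 gene of this list that did not pass, at 76.5 ± 16.01 and 83.8 ± 25.5 RPKM. Of 22 PPAR target genes, chosen because Ucp2 and Ucp3 are counted among such targets, 6 were higher and 14 lower in muscle. Fabp3 (12.28 ± 0.35), Pdk4 (7.07 ± 0.37) and Cpt1b (5.52 ± 0.11) were higher, and Cyp4a10 (-16.12 ± 0.26) and Cyp4a14 (-15.81 ± 0.27) were among those lower. Fabp3 was near 0 in WT liver (0.046 RPKM), and Cyp4a10 and Cyp4a14 were so in WT muscle (0.015 and 0.030 RPKM). With an RPKM pseudocount of 1 these 3 differed by 7.94, -10.16 and -10.32. None of these 3 lists had a called gene between genotypes in either tissue.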

How the data were processed

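Poly(A) libraries were made with a directional kit and read as single ends. The authors deposited a table of raw counts of uniquely mapped reads per gene and a table of RPKM. The aligner, the counter, the genome build and whether the counting used strand are not given in the sources used here, and reads shared with near-identical copies are thus uncertain, of which the pseudogene Slc25a5-ps held at most 5 reads in a library. Per the labels, groups are tissue and genotype.

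Counts were tested with edgeR 4.0.16 in R 4.3.3 (quasi-likelihood F test, TMM scaling, filterByExpr, Benjamini-Hochberg adjustment over all genes tested, threshold 0.05), within a tissue for genotype, within a genotype for tissue, and over all libraries for the interaction. CPM are counts scaled to library size and TMM factor. Intervals of fold changes use 20 degrees of freedom. The test was checked on simulated data. Alternatives used DESeq2 1.42.0, limma-voom (limma 3.58.1), scaling by library size, no filter, limma on log2(RPKM + 0.1) and log2(RPKM + 1), and the mouse as a block. Another used as an offset a loess of log2 CPM, less the gene's mean, on log2 gene length (span 0.3). Others left out 1 mouse or the 4 KO mice whose liver slope was below 0. Isoform shares are percentages of deposited RPKM within a library, tested by permutation in scipy 1.17.1. The RPKM implied gene lengths that varied between libraries: 46.0% of values with at least 100 counts were over 1% from the gene's median length.

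Named genes were the 6 members, list genes called between genotypes, the 3 called genes of each list with the largest difference each way between tissues in WT mice, and for each member with a WT mean of at least 1 RPKM in a tissue the 3 genes of highest Pearson r of log2 CPM (prior count 2) over WT libraries. A few genes that this rule selects are not reported here. Libraries, mice and markers singled out beside them were chosen after their values were seen. The members and lists were chosen with earlier results of these data known. Liver and muscle of the same number come from the same mouse, yet their deviations from the group means correlated at a mean r of 0.07 over 22 mice, against -0.01 between different mice. No 2 libraries of a group were identical.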

Additional observations from a re-analysis of the deposited data

How the results depend on the processing

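The tissue differences of all 6 genes kept their direction and their call in WT mice and in mice labelled KO under every alternative, among them DESeq2, limma-voom, RPKM and each mouse left out. Removing the gene length trend moved the median over all genes from -0.00 to 0.18 in WT mice and from -0.02 to 0.13 in mice labelled KO. With the mouse as a replicate block, 12674 genes were called between tissues in WT mice and 12107 in mice labelled KO, against 12653 and 12117 without it, and 1 in the interaction, so that the pairing changed no member's call. No member was called between genotypes or in the interaction under any alternative, with a lowest adjusted p of 0.253 in liver, 0.463 in muscle and 0.225 in the interaction.

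Counts of called genes depended on the tool: 6 in liver with DESeq2, 44 in the interaction with DESeq2, 3 with library size scaling and 2 with gene length removed, and in muscle 0 with limma-voom, without the filter, with both RPKM pseudocounts and without the 4 KO mice. Leaving out single mice gave 1 to 3 calls in the interaction. The cause was not tested.

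Differences near 0 changed sign. In liver Slc25a5 was -0.0346 with library size scaling, -0.0740 with gene length removed, -0.0309 and -0.0308 with RPKM pseudocounts of 0.1 and 1 and -0.0561 without the 4 KO mice. Ucp2 was -0.0021 with limma-voom, -0.0194 with library size scaling, -0.0856 with gene length removed, -0.25 and -0.24 with RPKM pseudocounts of 0.1 and 1, -0.12 without the 4 KO mice, and -0.11 to 0.10 with single mice left out. Without the 4 KO mice Slc25a4 was -0.0457 and Slc25a3 -0.0104 in liver, and Slc25a5 -0.0361 in muscle, where single mice left out gave -0.0529 to 0.0494. In the interaction Slc25a5 was 0.0676, 0.0588 and 0.0213 with library size scaling, gene length removed and without the 4 mice, and -0.102 to 0.0202 with single mice left out, and Nnt was -0.0020 with DESeq2, -0.10 with gene length removed, -0.19 without the 4 mice and -0.0837 to 0.0707 with single mice left out. The few reads of Ucp3 in liver limit its values there.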
